A study of Mus musculus with 35 samples.

Results

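The 9 genes described here serve the presentation of peptides by MHC class I molecules: B2m, H2-K1, H2-D1, H2-T23, Tap1, Tap2, Tapbp, Nlrc5 and Erap1. They were chosen by name for their place in this pathway, not by a measured value, and all 9 were found among the 33292 genes of the table. RNA was measured in podocytes, the epithelial cells that cover the capillaries of the kidney filter, in 6 groups of mice aged 7 to 10 weeks. The WT group carried Lmx1b+/lox, the H77L group Lmx1bH77L/lox and the C118F group Lmx1bC118F/lox, where the lox allele of the transcription factor gene Lmx1b is removed by Cre and the knock-in alleles change 1 amino acid in a LIM domain. All groups, controls included, shared a podocyte-specific rtTA transgene and the tetO::Cre and mTmG transgenes, received doxycycline at 2 mg/ml in their drinking water until day 7, and so lost the lox allele where rtTA was made. From the start of doxycycline they were injected every other day with bortezomib (Btz), an inhibitor of the proteasome, at 0.3 μg per g body weight, or with its solvent DMSO. Green cells, in which Cre had been active, were then sorted. There were 6 mice in each group, except for 5 in the C118F Btz group, and each mouse was 1 library. Mice are numbered here within their group, and the same number in different groups has no meaning.

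An MHC class I molecule shows short peptides from inside the cell to CD8 T cells. H2-K1 and H2-D1 encode the classical heavy chains of the mouse, H2-T23 a non-classical heavy chain that presents to receptors of natural killer cells, and B2m the light chain β2-microglobulin, without which heavy chains do not reach the surface. Peptides cut by the proteasome enter the endoplasmic reticulum through a transporter made of Tap1 and Tap2, are held near the heavy chain by tapasin (Tapbp) and are trimmed by the aminopeptidase Erap1. Nlrc5 is the transactivator of these genes, and interferons raise the whole pathway in most cell types. Podocytes have been described as carrying MHC class I at rest. On kidney sections of Lmx1b+/lox mice, however, the study detected no β2-microglobulin protein in podocytes. It reported the protein in both knock-in lines under DMSO and not under bortezomib. By RNA, the study placed B2m in a cluster of genes whose increase in both lines bortezomib prevented. Those clusters were drawn from scaled group medians. The RNA values below do not measure protein.

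In the mouse genome build GRCm39, 6 of the 9 genes lie within a stretch of chromosome 17. These are Tapbp (chr17:34134873-34148267), H2-K1 (chr17:34214987-34219321), Tap1 (chr17:34405996-34416199), Tap2 (chr17:34422501-34435829), H2-D1 (chr17:35481691-35486475) and H2-T23 (chr17:36340229-36345571). B2m is at chr2:121977957-121983594, Nlrc5 at chr8:95160984-95253900 and Erap1 at chr13:74787687-74841320. Tap1 starts head to head with the immunoproteasome gene Psmb9, Tapbp overlaps Zbtb22 on the same strand, and Erap1 overlaps Cast on the opposite strand. Whether the counting used strand is not given in the sources used here, so reads of such overlaps could not be assigned with certainty. The H2 heavy chains are near copies of each other and the aligner kept 1 alignment at random for a read with several, so the split of reads between H2 genes is uncertain.

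The upstream sequence of H2-K1 is shown with those of 3 further heavy chain genes, because these 4 promoters carry the same pair of motifs while their RNA did not move the same way. The stretches are read 5′ to 3′ on the strand of the gene from GRCm39, ahead of the start of the canonical transcript in GENCODE vM39. Capitals mark a κB core (GGGNNTTCC), to which NF-κB proteins bind, followed by an ISRE core (GAANNGAAA or its reverse complement), to which interferon regulatory factors bind. They are H2-K1 at chr17:34219333-34219452 (minus strand), H2-Q4 at chr17:35598400-35598519, H2-Q6 at chr17:35643633-35643752 and H2-Q7 at chr17:35657978-35658097 (plus strand).
H2-K1: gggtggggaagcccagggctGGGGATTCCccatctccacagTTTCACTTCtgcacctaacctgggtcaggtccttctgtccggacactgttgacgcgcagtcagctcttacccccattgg
H2-Q4: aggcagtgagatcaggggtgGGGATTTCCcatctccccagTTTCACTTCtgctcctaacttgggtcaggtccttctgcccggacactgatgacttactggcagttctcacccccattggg
H2-Q6: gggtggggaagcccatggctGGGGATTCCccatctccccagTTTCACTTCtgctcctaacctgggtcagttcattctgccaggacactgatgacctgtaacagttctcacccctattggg
H2-Q7: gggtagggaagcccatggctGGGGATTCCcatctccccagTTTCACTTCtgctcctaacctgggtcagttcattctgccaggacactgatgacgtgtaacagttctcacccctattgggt

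In H2-K1 the κB core lay 111 to 103 bases and the ISRE core 90 to 82 bases ahead of the start. Aligned over these stretches, H2-K1 was identical to H2-Q4 in 81.8% of columns, to H2-Q6 in 86.0% and to H2-Q7 in 84.4%, and H2-Q6 to H2-Q7 in 96.7%. Over the 250 bases upstream of 21770 genes, on both strands, 6.85% held an ISRE core, 5.03% a κB core and 0.322% both. Among the members, Tapbp and Erap1 held an ISRE core without a κB core, and the other 6 held neither by these letters in this window. The window ends at the start of the canonical transcript, which lies inside the gene for Tapbp, H2-T23 and Tap1. Their windows were chr17:34137974-34138223, chr17:36343748-36343997 and chr17:34406125-34406374, and the Nlrc5 window overlapped its gene in part. The sequence ahead of the outermost start of these genes was not fully searched. For B2m, H2-D1 and Tap2 the window ended at the outermost start, and sequence ahead of any start inside the gene was not searched. A missing match therefore does not show that a gene lacks these motifs. A match describes letters, not binding.

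The libraries held 5268502 to 24148352 reads, with a median of 19166166, as recovered from the steps of the values. All values are TPM, a relative unit which corrects for gene length and sums to the same total in every mouse. The cells carried the podocyte markers in all groups, although 7 of the 8 listed markers were lower in each knock-in line under each treatment, and the summed level of the 8 ran from 26079 to 42349 TPM in WT mice and from 5269 to 14022 TPM in knock-in mice. Lmx1b RNA, which a point mutation need not change, was read in every mouse, from 37.4 to 185 TPM, and was higher in H77L than in WT mice under DMSO (log2 fold change 0.78, adjusted p = 0.000791). The 10 leukocyte markers summed to 2.38 to 34.4 TPM in 33 of the 35 mice, with Ptprc, the pan-leukocyte marker, at most 0.241 TPM in every mouse. WT DMSO mice 1 and 6 stood apart with 328 and 67.2 TPM, mostly of the macrophage gene Lyz2 (285 and 58.3 TPM). Of the leukocyte markers tested under DMSO, 1 of 2 was higher in the H77L line. In the C118F line, 1 of 3 was higher and 1 lower. Under bortezomib, 1 of 1 (H77L) and 2 of 2 (C118F) were higher. Mean Csf1r, named once its values were known, was 4.17 TPM in WT, 11.6 in H77L and 8.21 in C118F DMSO mice. Under bortezomib it was 3.51, 10.7 and 12.4 TPM. Other leukocyte markers went the other way under DMSO. Median Lyz2 was 12.2 TPM in WT, 0.223 in H77L and 0.452 in C118F DMSO mice, and mean Adgre1 was 1.03, 0.147 and 0.161 TPM. C118F DMSO mouse 1 held 2166 TPM of the renin gene Ren1 and 25.3 TPM of the endothelial gene Pecam1, both far above the other C118F DMSO mice. These 3 libraries were picked out once the marker values were known. The 5 mesangial markers, Ren1 among them, summed to 20.1 to 78.0 TPM in WT mice and to 121 to 2282 TPM in knock-in mice, and both that could be tested, Pdgfrb and Ptn, rose in all 4 comparisons of a line with WT. Ren1, Gata3 and Itga8 were not tested and did not share this rise. Their medians were 6.21, 0.238 and 0.0652 TPM in WT DMSO mice and 7.10, 0 and 0.136 TPM in H77L DMSO mice. In C118F DMSO mice they were 2.67, 0.0727 and 0.0631 TPM. The 4 parietal epithelial markers summed to 68.2 to 94.7 TPM in WT and 77.2 to 227 TPM in knock-in mice, the 6 endothelial markers to at most 61.6 TPM outside C118F DMSO mouse 1, at 153 TPM, and the 6 tubule markers to between 3.28 and 903 TPM. The part of these cell types in the results was not tested.

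In DMSO-treated mice, podocytes of both knock-in lines held more B2m and more heavy chain RNA than WT podocytes. B2m was 3.99 times higher in the H77L line and 5.12 times higher in the C118F line, H2-K1 3.44 and 3.82 times, H2-D1 3.15 and 2.996 times, and H2-T23 2.05 and 2.53 times, as ratios of geometric means on the log2(TPM + 1) scale. Tapasin and the transporter moved less. The 9 members held 0.416% ± 0.0524 of all TPM in WT DMSO mice, 1.49% ± 0.998 in H77L DMSO mice and 1.59% ± 0.481 in C118F DMSO mice (SD, n = 6 each). In a sorted population, more cells with a high level and more RNA per cell cannot be told apart.

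B2m, the most abundant member, ran from 1225 to 1857 TPM in WT DMSO mice with a median of 1533. The H77L DMSO mice lay between 3819 and 20278 TPM with a median of 5089, and the C118F DMSO mice between 4339 and 12738 TPM with a median of 7844. Every knock-in mouse was therefore above every WT mouse. The log2 fold change was 2.00 ± 0.315 (SE) in the H77L line and 2.36 ± 0.244 in the C118F line, with adjusted p of 0.000178 and 5.74e-06.

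H2-K1 behaved in the same manner at a lower level. It was between 260.1 and 429 TPM in WT DMSO mice (median 314), between 819 and 2695 TPM in H77L DMSO mice (median 968) and between 928 and 1696 TPM in C118F DMSO mice (median 1265). Neither knock-in group overlapped with WT. Its log2 fold changes were 1.78 ± 0.242 and 1.93 ± 0.162 (SE), with adjusted p of 4.93e-05 and 7.23e-07.

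H2-D1, the other classical heavy chain, was the second most abundant member. WT DMSO mice held 865 to 1878 TPM (median 1416), H77L DMSO mice 2832 to 10602 TPM (median 3956) and C118F DMSO mice 2152 to 5567 TPM (median 4879). The groups did not overlap with WT either, and the log2 fold changes were 1.65 ± 0.275 and 1.58 ± 0.242 (SE), with adjusted p of 0.000272 and 0.000202. For the non-classical H2-T23, the ranges were 176 to 240.1 TPM (median 199), 323 to 559 TPM (median 383) and 380.2 to 682 TPM (median 484), again without overlap. Its log2 fold changes were 1.04 ± 0.134 and 1.34 ± 0.148 (SE), with adjusted p of 3.24e-05 and 1.03e-05.

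The ratio of heavy chains to B2m was lower in the median of the knock-in lines. The sum of H2-K1 and H2-D1 divided by B2m had a median of 1.12 in WT DMSO mice, 0.895 in H77L DMSO mice and 0.635 in C118F DMSO mice, with ranges of 0.763 to 1.49, 0.656 to 1.05 and 0.472 to 1.11 that overlapped. The order of the members by level was B2m, H2-D1, H2-K1, Tapbp, H2-T23, Erap1, Tap2, Tap1 and Nlrc5 in all 4 knock-in groups, while in both WT groups Tapbp stood above H2-K1. Tapbp and H2-K1 overlapped in every group other than WT Btz, so their order is that of means and not of all single mice. B2m and H2-D1 overlapped in all 6 groups, and Erap1 and Tap2 in 4. Tapbp and H2-T23 overlapped in C118F Btz mice, and Tap2 and Tap1 in C118F DMSO mice.

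**Figure D1:**
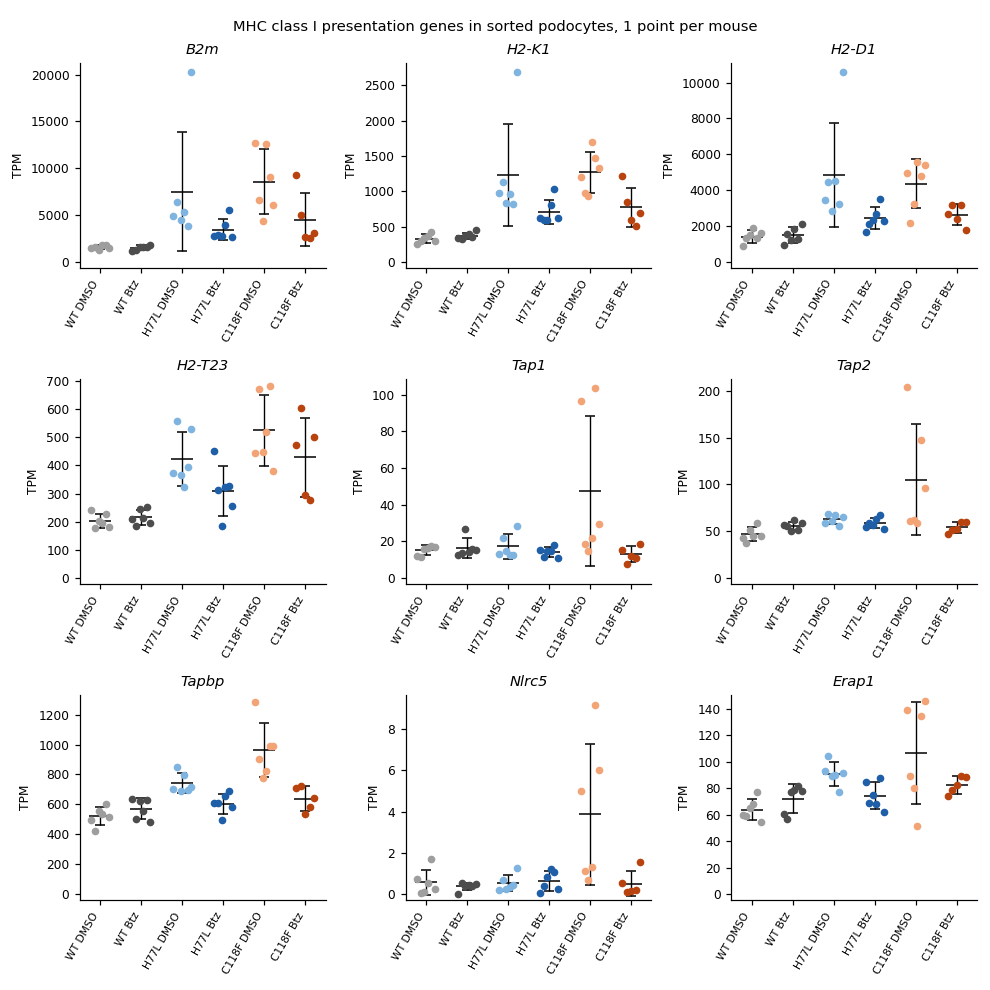
TPM of the 9 members (vertical axes, linear, 1 panel per gene) in the 6 groups, with 1 point per mouse, a horizontal bar at the mean and error bars of 1 SD. B2m and the 3 heavy chains are higher in all knock-in mice than in WT mice under DMSO, whereas the spread of Tap1, Tap2, Nlrc5 and Erap1 is widest among C118F DMSO mice.

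Tap2 of the peptide transporter rose in both lines and Tap1 passed the test in the C118F line. Tap2 was between 37.9 and 59.0 TPM in WT DMSO mice (median 44.7), between 55.8 and 68.1 TPM in H77L DMSO mice (median 62.9) and between 59.3 and 204 TPM in C118F DMSO mice (median 79.1). The C118F mice lay above all WT mice, whereas the H77L mice overlapped with them. The log2 fold changes were 0.42 ± 0.103 (SE, adjusted p = 0.00425) and 0.99 ± 0.273 (adjusted p = 0.0135). The H77L call was lost with all 35 mice in 1 fit (adjusted p = 0.0666), and the C118F call with mouse number as a covariate (0.78, adjusted p = 0.0798).

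Tap1, the other subunit, varied widely among C118F mice. It was between 11.3 and 17.6 TPM in WT DMSO mice (median 16.3), between 12.5 and 28.5 TPM in H77L DMSO mice (median 13.7) and between 14.9 and 104 TPM in C118F DMSO mice (median 25.8). C118F mice 1 and 5 held 96.6 and 104 TPM and the other 4 at most 29.6 TPM. The log2 fold change was 0.13 ± 0.200 in the H77L line (adjusted p = 0.634) and 1.18 ± 0.421 in the C118F line (adjusted p = 0.0453). This call held in 6 of 22 alternatives. It was lost when C118F DMSO mouse 1 (adjusted p = 0.0803), mouse 5 (0.0950) or mouse 6 (0.0582), or any 1 of the 6 WT DMSO mice, was left out, and with an adjusted p of up to 0.207 under other settings.

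Tapasin rose in both lines, and the groups did not overlap. Tapbp was between 424 and 604 TPM in WT DMSO mice (median 527), between 693 and 847 TPM in H77L DMSO mice (median 709.6) and between 779 and 1287 TPM in C118F DMSO mice (median 946). Changes on the log2 scale were 0.51 ± 0.0946 (SE, adjusted p = 0.00064) and 0.87 ± 0.129 (adjusted p = 0.000165).

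Erap1 rose in both lines, with overlap. WT DMSO mice held 54.6 to 76.9 TPM (median 62.6), H77L DMSO mice 76.9 to 104.5 TPM (median 90.8) and C118F DMSO mice 51.6 to 146 TPM (median 112). On the log2 scale, it changed by 0.50 ± 0.0953 (SE, adjusted p = 0.000736) and 0.65 ± 0.218 (adjusted p = 0.0356). In the C118F line, the call held in 11 of 22 alternatives and was lost when any 1 of 8 mice was left out, WT DMSO mice 1, 2, 3, 4 and 6 and C118F DMSO mice 1, 5 and 6, with adjusted p up to 0.0795. It was also lost with mouse number as a covariate (0.33, adjusted p = 0.223), without a filter on low values (adjusted p = 0.0915) and with the 7 mice with H2-T9 under 1 TPM left aside (adjusted p = 0.05003).

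Nlrc5 was the least abundant member. It was the only member that did not pass the filter, which asked for more than 1 TPM in every mouse of a group compared, and it was therefore not part of the fit. WT DMSO mice held 0.0289 to 1.71 TPM (median 0.395), from 1 to 83 reads, and H77L DMSO mice 0.184 to 1.24 TPM (median 0.387). C118F DMSO mice held 0.657 to 9.18 TPM (median 3.16), from 36 to 409 reads, with at least 4.99 TPM in mice 1, 5 and 6 and at most 1.32 TPM in the others. In a two-sided exact permutation test on log2(TPM + 1), the C118F line differed from WT by 1.40 with p = 0.0195, which was 0.0779 after adjustment over 9 comparisons. The lowest p this design allows is 0.00216.

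Counted over the 8 members tested, 7 rose in the H77L line and 8 in the C118F line at an adjusted p under 0.05, and none fell. For comparison, 22.4% of the 10964 genes tested were higher in the H77L line and 13.7% of 10899 in the C118F line, and 22.4% and 16.6% were lower. The median log2 fold change of the members was 0.77 and 1.26, against -0.01 and -0.06 over all genes tested. Every H77L mouse was above every WT mouse in 5 of the 8 members and in 11% of all genes, and every C118F mouse in 6 of the 8 members and in 6.48% of all genes. By the stricter cutoffs used in the study, an adjusted p under 0.001 and a log2 fold change above 2, B2m passed in the C118F line and no member in the H77L line, where 1.63% and 1.62% of genes passed upwards. The H77L value of B2m was just below the limit, at 2.00 after rounding.

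**Figure D2:**
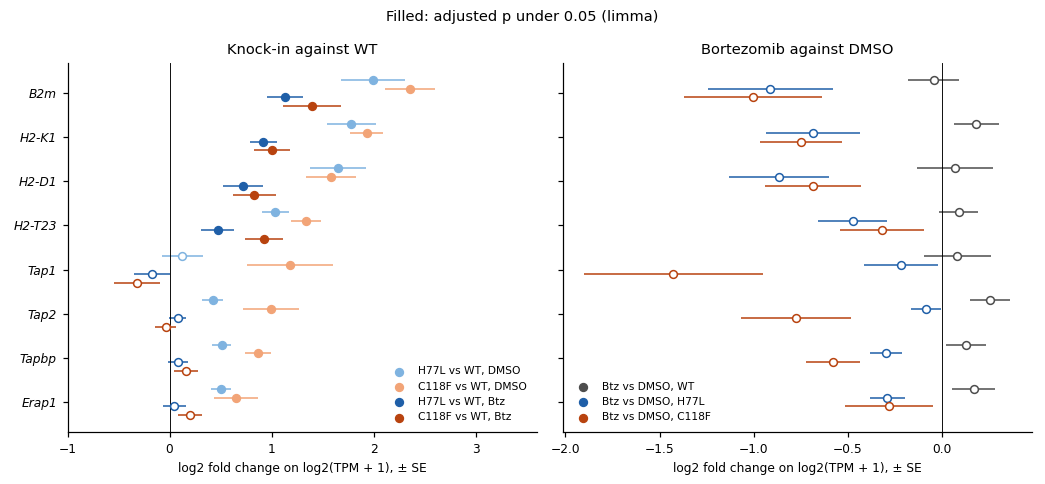
Log2 fold changes on the log2(TPM + 1) scale (horizontal axes) with SE for the 8 members tested, in knock-in against WT mice under each treatment (left) and in bortezomib- against DMSO-treated mice of each genotype (right). Filled symbols have an adjusted p under 0.05. B2m and the heavy chains are filled in all 4 knock-in comparisons, and no symbol is filled on the right.

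Under bortezomib, B2m, H2-K1, H2-D1 and H2-T23 were still higher in both knock-in lines than in WT mice given the same drug, by smaller factors, and no other member passed the test. B2m was between 1159 and 1840 TPM in WT Btz mice (median 1591) and between 2669 and 5529 TPM in H77L Btz mice (median 2843). The C118F Btz mice held 9307, 4989, 2678, 2544 and 3099 TPM. All knock-in mice again lay above all WT mice. The log2 fold change of B2m was 1.13 ± 0.174 (SE, adjusted p = 0.000156) in the H77L line and 1.40 ± 0.283 (adjusted p = 0.00202) in the C118F line.

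H2-K1 was the other member without overlap in both lines. WT Btz mice held 319 to 445 TPM (median 358), H77L Btz mice 588 to 1026 TPM (median 619) and C118F Btz mice 1212, 847, 599, 511 and 692 TPM. Its log2 fold changes were 0.92 ± 0.132 (SE, adjusted p = 8.4e-05) and 1.00 ± 0.181 (adjusted p = 0.000836). H2-D1, which did overlap, was higher by 0.72 ± 0.194 (SE, adjusted p = 0.0125) and 0.83 ± 0.210 (adjusted p = 0.00891) on the log2 scale. The H77L call was lost without a filter on low values (adjusted p = 0.0524), and the C118F call with mouse number as a covariate (adjusted p = 0.0732).

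H2-T23 was between 185 and 251 TPM in WT Btz mice (median 212), and C118F Btz mice held 472, 604, 294, 277 and 501 TPM, all above WT. H77L Btz mice reached from 184 to 451 TPM (median 318) and overlapped with WT. The log2 fold changes were 0.93 ± 0.185 (SE, adjusted p = 0.00179) in the C118F line and 0.47 ± 0.161 (adjusted p = 0.0443) in the H77L line. The H77L call held in 7 of 22 alternatives and was lost when any 1 of 8 mice was left out, WT Btz mice 1, 2, 4 and 6 and H77L Btz mice 1, 2, 4 and 5, with adjusted p up to 0.0922. It was also lost without a filter on low values (adjusted p = 0.12) and with mice with H2-T9 under 1 TPM left aside (0.113). All 35 mice in 1 fit, no trend, quantile normalization, mouse number as a covariate and array weights lost it too (0.0590 to 0.0698).

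The transporter, tapasin and Erap1 did not pass the test under bortezomib in either line. Tap1 was between 7.60 and 26.8 TPM, Tap2 between 46.7 and 67.4 TPM, Tapbp between 482.7 and 724 TPM and Erap1 between 56.7 and 89.1 TPM over all 17 bortezomib-treated mice. The 8 log2 fold changes of these 4 genes ran from -0.32 to 0.20, with adjusted p of at least 0.222. Nlrc5 was between 0 and 1.55 TPM, and H77L and C118F Btz mice differed from WT Btz mice by 0.22 and 0.07 on the log2 scale (exact permutation test, adjusted p = 0.667 and 0.911).

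In total, 4 of the 8 members rose in each line under bortezomib, where 12.5% of 10805 genes (H77L) and 15.1% of 10916 genes (C118F) rose and 11% and 12.4% fell. Without overlap, 2 members were higher in the H77L line and 3 in the C118F line, against 6.8% and 9.01% of all genes. No member passed the stricter cutoffs, which 0.925% and 1.52% of genes passed upwards. A comparison past the threshold under one treatment and not under the other is not by itself a difference between treatments, which was tested next.

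Within WT mice, no member passed the test between bortezomib and DMSO, with log2 fold changes from -0.04 (B2m) to 0.26 (Tap2) and adjusted p of at least 0.565, and 0% of 10659 genes were called. Within the H77L line, all 8 values were negative, from -0.91 (B2m, SE 0.333) to -0.09 (Tap2), with adjusted p from 0.0841 (Tapbp) to 0.585. There, 1.16% of 10813 genes were called in either direction and no member was. Within the C118F line, all 8 values were negative as well, from -1.43 (Tap1, SE 0.475) to -0.28 (Erap1), with adjusted p from 0.645 to 0.825 and 0% of 10814 genes called.

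In single mice, Tapbp was the member whose treatment groups separated in both lines. The H77L mice held 495.5 to 689.5 TPM under bortezomib and 693 to 847 TPM under DMSO, and the C118F mice held 711, 724, 533, 586 and 640.3 TPM under bortezomib and 779 to 1287 TPM under DMSO. All bortezomib-treated mice were below all DMSO-treated mice in 1.16% of genes in the H77L line and in 0.222% in the C118F line. The log2 fold changes of Tapbp were -0.30 ± 0.0856 (SE, adjusted p = 0.0841) and -0.58 ± 0.142 (adjusted p = 0.645). Neither passed the test over all genes. At an unadjusted p under 0.05, limma called 923 genes in the WT comparison and 634 in the C118F comparison, although none after adjustment.

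The difference between the bortezomib responses of a knock-in line and WT was negative for all 8 members in both lines. It ran from -0.93 (H2-D1) to -0.30 (Tap1) in the H77L line, with adjusted p of at least 0.114, and from -1.51 (Tap1) to -0.41 (H2-T23) in the C118F line, with adjusted p of at least 0.566. Since both differences use the same WT mice, they are not independent. No member was called, and 0% of 11163 and 0% of 11197 genes were called (2037 and 560 at an unadjusted p under 0.05 in limma).

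The 2 knock-in lines were also compared with each other. Under DMSO, the C118F line differed from the H77L line by -0.07 (H2-D1) to 1.06 (Tap1) on the log2 scale, with adjusted p of at least 0.931, and 0% of 10809 genes were called (416 at an unadjusted p under 0.05). Under bortezomib, the members differed by -0.15 (Tap1) to 0.46 (H2-T23), with adjusted p of at least 0.379, while 0.972% of 10803 genes were called. The bortezomib responses of the lines differed by -0.18 to 1.21 (Tap1), with adjusted p of at least 0.650, and 0% of 11046 genes were called (840 unadjusted). The value of Tap1 under DMSO was 1.06 ± 0.447 (SE), with an unadjusted p of 0.0324 and an adjusted p = 0.931 in limma.

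Pooled over the 6 groups, the deviations of mice from their group means fell into 2 sets of members. After subtraction of the group means on the log2(TPM + 1) scale, B2m went with H2-K1 (Pearson r = 0.90 over 35 mice) and both with H2-D1 (0.65 and 0.71). Tap1, Tap2, Nlrc5 and Erap1 formed another set, with r from 0.61 (Tap1 with Erap1) to 0.79 (Tap1 with Tap2). Between the sets r was lower, from 0.06 (B2m with Erap1) to 0.47 (B2m with Tap1). The spread of Tap1 and Tap2 was mostly that of C118F DMSO mice, with SDs of 41.1 and 59.3 TPM. In each other group the SDs were at most 6.59 and 7.34 TPM. WT Btz mouse 3 was the highest of its group for Tap1 (26.8 TPM) and the lowest for Tap2 (50.7 TPM). Whether these r values hold within every group was not tested. H2-T23 was at 0.40 with both B2m and H2-K1 and at -0.10 with H2-D1, and Tapbp lay between, from 0.09 (H2-D1) to 0.59 (Tap2). These values describe mice that share libraries and a fixed total of TPM, and they carry no test.

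**Figure D3:**
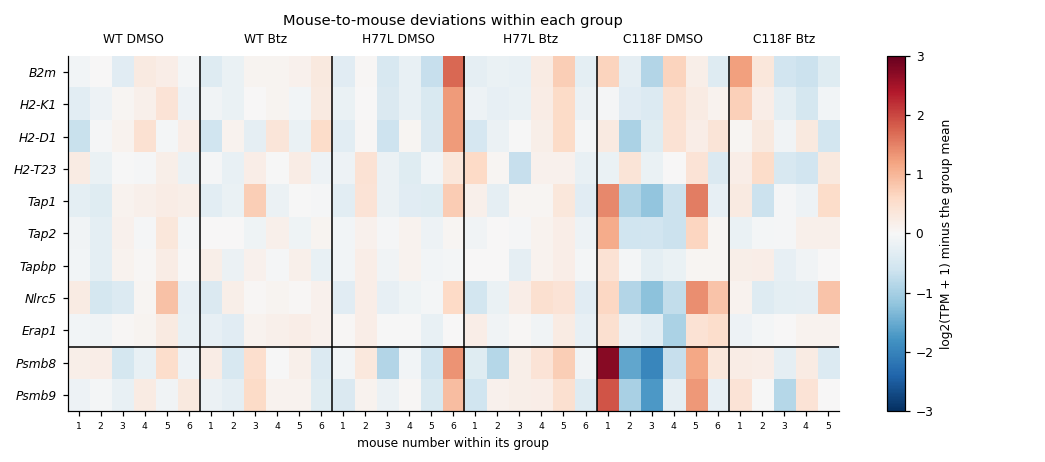
Deviation of each mouse from its group mean (color, log2(TPM + 1)) for the 9 members and for Psmb8 and Psmb9 (rows), with mice in columns by group. H77L DMSO mouse 6 is high for B2m, H2-K1 and H2-D1, whereas C118F DMSO mice 1 and 5 are high for Tap1, Nlrc5, Psmb8 and Psmb9. C118F DMSO mouse 6 is high for Nlrc5 as well.

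H77L DMSO mouse 6 held the highest B2m, H2-K1 and H2-D1 of all mice, at 20278, 2695 and 10602 TPM. It was also the highest of its group for Tap1, at 28.5 TPM against at most 21.97 TPM, and for Nlrc5, at 1.24 TPM against at most 0.701 TPM, whereas its 65.1 TPM of Tap2 was within the 55.8 to 68.1 TPM of the group. Its podocyte markers summed to 5287 TPM, the lowest of its group. Its parietal epithelial markers summed to 227 TPM, the highest of all mice. C118F DMSO mice 1, 5 and 6 held the highest Tap2 of all mice, at 204, 147 and 96.3 TPM. Mouse 1 was the highest of its group for B2m as well, at 12738 TPM, and mice 5 and 6 held 9053 and 6083 TPM. Mouse 4, which held 12539 TPM of B2m, was the lowest of the group for Tap2, at 59.3 TPM. C118F DMSO mouse 1 is the library with high Ren1 and Pecam1, in contrast to mice 5 and 6, where Ren1 was at 0.690 and 0 TPM and Pecam1 at 0.398 and 0.223 TPM.

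The 5 further genes most like the mean z score of the 9 members, after removal of group means and among 11298 genes, were Gbp2 (r = 0.84), Irgm2 (0.84), Rtp4 (0.83), Tgtp2 (0.83) and Irgm1 (0.82), over 35 mice. Gbp2 encodes a guanylate-binding protein, Irgm1, Irgm2 and Tgtp2 encode immunity-related GTPases and Rtp4 a transmembrane protein, and all are known as interferon-induced genes. Gbp2 was between 32.9 and 41.2 TPM in WT DMSO mice, between 91.3 and 440 TPM in H77L DMSO mice and between 88.9 and 1663 TPM in C118F DMSO mice, with log2 fold changes of 1.78 (adjusted p = 0.000277) and 3.01 (adjusted p = 0.00222). The other four overlapped with WT in both lines. In the H77L line none of the 3 that were tested was called, with Irgm1 at 0.53 (adjusted p = 0.396), Irgm2 at 0.03 (0.917) and Rtp4 at 0.97 (0.126). In the C118F line, Tgtp2 rose by 3.80 (adjusted p = 0.0114), Rtp4 by 2.37 (0.0266) and Irgm1 by 1.71 (0.0459), and Irgm2 was at 1.28 (0.0862). Median TPM of Irgm2 was 52.9 in WT, 53.6 in H77L and 124 in C118F DMSO mice, and that of Tgtp2 was 1.84, 1.55 and 18.6.

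The remaining heavy chain genes did not all follow the members. The counts of this and the following lists under DMSO stand beside the 22.4% of all genes that were higher and 22.4% that were lower in the H77L line, and 13.7% and 16.6% in the C118F line. Of 16 listed, 8 could be tested in the H77L line under DMSO, with 3 higher and 2 lower, and 6 in the C118F line, with 2 higher and 2 lower. H2-Q4 rose with the members, by 2.05 ± 0.380 (SE, adjusted p = 0.00064) and 1.91 ± 0.499 (adjusted p = 0.0102) on the log2 scale. H2-M3, which presents formylated peptides, rose by 0.93 in the C118F line (adjusted p = 0.00194) and was at 0.33 in the H77L line (adjusted p = 0.0765), and H2-T22 was at -0.28 and -0.37 (adjusted p of at least 0.433).

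H2-Q6 and H2-Q7, non-classical heavy chains of the Qa region, fell in both lines. H2-Q7 was between 83.3 and 171 TPM in WT DMSO mice, between 0.884 and 30.6 TPM in H77L DMSO mice and between 1.81 and 20.9 TPM in C118F DMSO mice. Under bortezomib it was between 83.2 and 237 TPM in WT mice and at most 30.4 TPM in the knock-in lines. The log2 fold changes of H2-Q7 were -3.63 and -3.71 under DMSO (adjusted p = 2.99e-05 and 1.2e-05) and -3.05 and -3.61 under bortezomib (6.11e-08 and 0.000253). Those of H2-Q6 were -2.84, -2.67, -2.61 and -3.24 in the same order, with adjusted p of at most 0.00133. In no comparison did a knock-in mouse reach the WT range for either gene. In the reference genome, their upstream stretches, shown above, hold the same κB and ISRE cores as that of H2-K1, whose RNA rose, and differ from it elsewhere. The sequence of these mice was not read, and the part of the cores or of other bases was not tested.

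**Figure D4:**
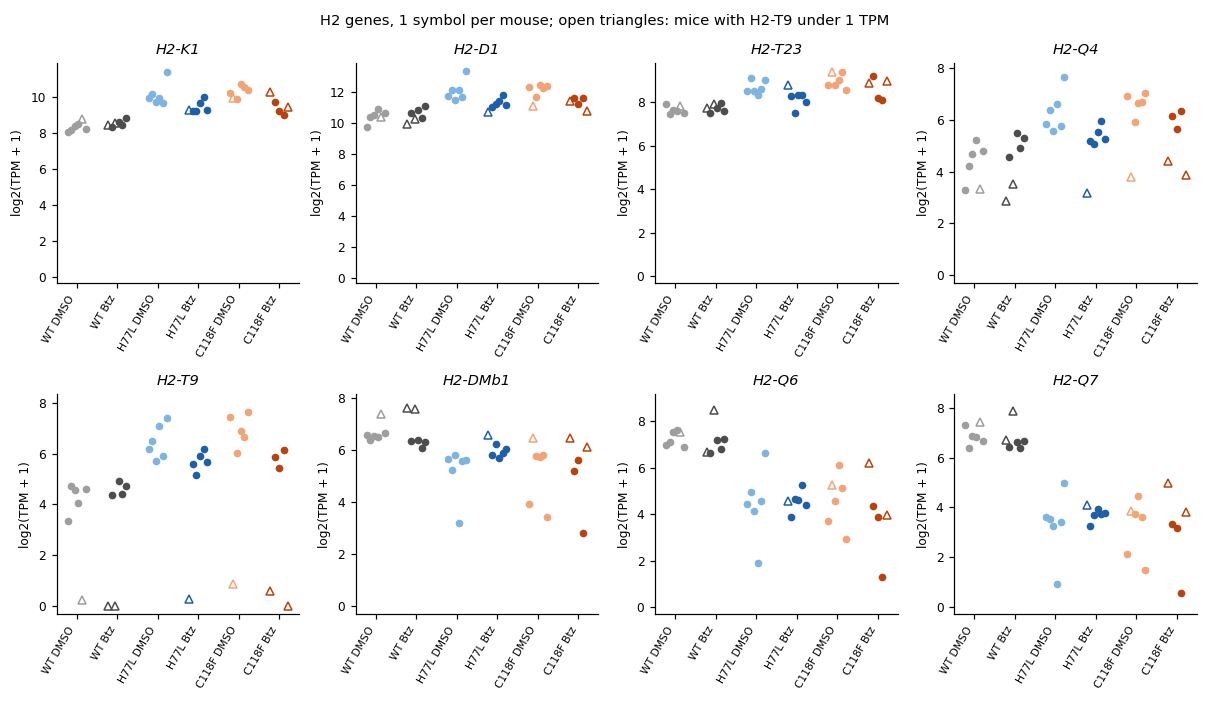
log2(TPM + 1) (vertical axes) of 8 H2 genes in the 6 groups, with 1 symbol per mouse and open triangles for the 7 mice with H2-T9 under 1 TPM. H2-K1, H2-D1 and H2-T23 are on average higher and H2-Q6 and H2-Q7 lower in knock-in mice, and H2-T9 is close to 0 in 7 mice of 5 groups.

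Within groups, H2-T9 split the mice into 2 sets. H2-T9, the class II genes H2-DMb1 and H2-DMb2, and H2-T13 and H2-Q5 are named because of these values, not by the rule for the other genes. In 7 mice of 5 groups H2-T9 was at most 0.852 TPM, and in the other 28 mice it was between 9.33 and 199.9 TPM. In each of the 5 groups, H2-DMb1 was higher in the mice low in H2-T9 than in all others, for example 189 to 192 against 65.4 to 81.9 TPM in WT Btz mice and 86.4 against 9.80 to 55.1 TPM in C118F DMSO mice.

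Of the members, H2-D1 went with H2-T9 (r = 0.64 within groups). It was 2152 TPM in C118F DMSO mouse 2, which is low in H2-T9, and 3209 to 5567 TPM in the others of that group, and 962 to 1208 against 1268 to 2133 TPM in WT Btz mice. In the H77L Btz group, the low mouse held 1687 TPM and the others 2107 to 3524 TPM. There was overlap in the other two groups, with 1319 against 865 to 1878 TPM in WT DMSO mice and 1753 to 2691 against 2379 to 3171 TPM in C118F Btz mice. Of the 20 genes with the largest absolute r to H2-T9 within groups, 14 lay on chromosome 17, between 24.4 and 36.6 Mb, whereas 5.09% of the 11306 genes compared lie anywhere on that chromosome. They included H2-Q4 (0.92), H2-T13 (0.91), H2-DMb2 (0.89) and H2-DMb1 (-0.66). For H2-Q7, 13 of the 20 lay on chromosome 17, among them H2-Q6 (0.95), H2-Q5 (0.92), H2-DMb1 (0.89) and H2-T23 (0.59).

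The knock-in alleles had been crossed back to C57Bl/6 J mice, and the H2 genotype of single mice is not given in the sources used here. Its part in the values was not tested. With the 7 mice left aside, an alternative chosen after the data were seen, 7 members rose in each line under DMSO, where 23% (H77L) and 10.8% (C118F) of genes rose, and 3 (H77L) and 4 (C118F) under bortezomib, where 10.5% and 11.4% rose. B2m then passed the stricter cutoffs in both lines under DMSO, and H2-K1 in the C118F line, against 1.57% and 1.28% of genes. Between the responses of H77L and WT mice to bortezomib, Erap1 was then called, together with 6.02% of genes in either direction.

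Neighbors of the members on chromosome 17 were also counted. Between the start of Tapbp and the end of H2-T23, 66 other genes that are on none of the antigen presentation lists were tested in the H77L line under DMSO, of which 7 were higher (10.6%) and 13 lower, and 64 in the C118F line, of which 4 were higher (6.25%) and 11 lower. Their median log2 fold changes were -0.01 and -0.03.

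Among the genes that generate peptides, 4 of 13 rose and 2 fell in the H77L line under DMSO, and 3 rose and 1 fell in the C118F line. Among all genes, 22.4% rose and 22.4% fell in the H77L line and 13.7% and 16.6% in the C118F line. The immunoproteasome subunit Psmb8 was between 2.18 and 5.53 TPM in WT DMSO mice, and C118F DMSO mice 1, 5 and 6 held 156, 52.2 and 29.1 TPM against at most 13.7 TPM in mice 2, 3 and 4. Its log2 fold change was 2.39 in the C118F line (adjusted p = 0.00977) and 0.44 in the H77L line (adjusted p = 0.273). Psmb10 rose in both lines, by 0.50 and 1.47 (adjusted p = 0.00934 and 0.00551). Psmb9, which shares its promoter region with Tap1, was at -0.50 and 1.11 (adjusted p = 0.0614 and 0.0905). The activator subunit Psme2 fell by 0.42 in the H77L line (adjusted p = 0.00346) and was at 0.30 in the C118F line (0.395), and Psme1 was at -0.13 and 0.17 (0.133 and 0.473).

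Of 9 genes for loading and folding, 4 rose in the H77L line and 2 in the C118F line, and none fell. Calreticulin (Calr), calnexin (Canx) and Pdia3, which hold the heavy chain during loading, had log2 fold changes from -0.02 to 0.20 under DMSO, with adjusted p of at least 0.202. Tapbpl, a peptide editor related to tapasin, rose by 0.58 (H77L, adjusted p = 0.00982) and 1.46 (C118F, adjusted p = 0.00341). It was the pathway gene that fell under bortezomib in the H77L line, by 0.44 (adjusted p = 0.0419).

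Of 19 listed regulators, 16 were tested under DMSO, with 5 higher and 2 lower in the H77L line and 6 higher and 2 lower in the C118F line, again beside 22.4% higher and 22.4% lower, and 13.7% and 16.6%, of all genes. Irf1, an interferon regulatory factor, was between 21.0 and 210.5 TPM in WT DMSO mice, between 362 and 613 TPM in H77L DMSO mice and between 178 and 619 TPM in C118F DMSO mice. It rose by 2.58 (adjusted p = 0.00038) and 2.06 (adjusted p = 0.00802) on the log2 scale. Irf2 and Rfx5, which bind class I promoters, were between 0.08 and 0.35 in both lines with adjusted p of at least 0.0774.

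Of the interferon list, 7 of 9 genes were tested under DMSO, with 5 higher and 1 lower in the H77L line and 1 higher and 1 lower in the C118F line. The interferon genes Ifnb1 and Ifng were listed at 0 in all mice. Of the receptors, Ifngr1 fell by 0.66 (adjusted p = 0.0014) and 0.86 (adjusted p = 0.000328), and Ifnar1 rose by 0.61 in the H77L line (adjusted p = 0.00679) and was at 0.44 in the C118F line (adjusted p = 0.137). Of 8 class II genes, 4 were tested, none was higher, and 2 were lower in the H77L line and 1 in the C118F line. Under bortezomib, 1 (H77L) and 3 (C118F) of the 9 loading and folding genes, 1 and 2 of the 13 peptide generation genes, and 0 and 1 of the 15 regulators tested were higher, while 0 and 0, 1 and 2, and 0 and 2 were lower, beside 12.5% and 15.1% of all genes that were higher and 11% and 12.4% that were lower. Psmb9 was among them, at -0.72 in the C118F line (adjusted p = 0.0382) and -0.39 in the H77L line (0.187).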

How the data were processed

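Poly(A) RNA of FACS-sorted podocytes from 35 mice was sequenced from 1 end after SMART-Seq library preparation. Per the labels and the study's methods, the authors trimmed adapters with Trim Galore 0.6.7, aligned reads to GRCm39 with STAR, keeping 1 alignment per read at random, and counted genes with featureCounts 1.6.3. The authors deposited TPM values, a length-corrected unit, and the step from counts to TPM is not given in the sources used here. Of 33292 identifiers, 32776 were matched to GENCODE vM39.

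For each comparison, log2(TPM + 1) of genes above 1 TPM in every mouse of at least 1 group compared was fitted with limma 3.58.1 (R 4.3.3, lmFit and trended eBayes), using only mice of those groups, with Benjamini-Hochberg adjustment over all genes tested. The 12 comparisons were knock-in against WT and bortezomib against DMSO, the lines against each other, and differences of bortezomib responses. Nlrc5 was tested with two-sided exact permutation tests (scipy 1.17.1). Fold changes on the log2(TPM + 1) scale understate those of low genes. Reads were recovered for all but 2321 of 23943 genes from the steps of the TPM values (tolerance 0.001 reads per step), and intervals from counts were not used, since PCR copies are not independent molecules. The WT label was taken as Lmx1b+/lox from the study's design.

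Named genes were the 9 members, 20 listed pathway genes and the 5 genes most like the members; any other is marked as chosen after its values were seen. Some items covered by this rule are not reported here. Members, lists and tests were chosen with earlier results of these data known. Alternatives were pseudocount 0.1, no filter, all 35 mice in 1 fit, no trend, median centring, quantile normalization, mouse number as a covariate, array weights and each mouse left out, and, after seeing the data, voom on recovered reads and the mice low in H2-T9 left aside. The fits were tested on simulated data.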

Additional observations from a re-analysis of the deposited data

Results flagged for a closer look

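Within groups, each member's highest and lowest mouse was set against the rest with Dixon's ratio of the gap to the range on log2 values. Of 54 sets of mice, 5 had a mouse beyond the 95% limit (0.625 for 6 mice, 0.71 for 5), where chance alone gives about 1 in 20, or 2.7. H77L DMSO mouse 6 stood above its group in B2m at 20278 TPM (ratio 0.695), in H2-K1 at 2695 TPM (0.732) and in H2-D1 at 10602 TPM (0.650). WT Btz mouse 3 stood above its group in Tap1 at 26.8 TPM (0.712), and WT Btz mouse 1 below its group in Nlrc5, listed at 0 TPM (0.778).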

How the results depend on the processing

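At an adjusted p under 0.05, the number of members called kept within 1.5 times that of the fit used in all alternatives other than the following. With mouse number as a covariate, 5 were called in C118F against WT under DMSO. Without a filter, 2 were called in H77L against WT under bortezomib. With all 35 mice in 1 fit, 1 (Tapbp) was called between treatments in C118F mice, and with the mice low in H2-T9 left aside, 1 (Erap1) in the difference of the H77L and WT responses. The last setting also gave 1 member past the stricter cutoffs in H77L and 2 in C118F mice under DMSO, and leaving out 1 mouse gave 0 to 1 and 1 to 2. At an adjusted p under 0.05, leaving out 1 mouse gave 6 to 9 members in C118F against WT under DMSO. A count of 9 includes Nlrc5, which then passed the filter. The cause was not tested.

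No called value changed sign. Among values that were not called, log2 values of the opposite sign were -0.0314 for Tap1 (H77L against WT, DMSO) and -0.11 for H2-K1 (C118F against H77L, Btz), -0.001489 for H2-D1 (treatment, WT) and 0.16 for H2-T23 (H77L minus C118F response) with array weights. With mouse number they were -0.0537 for Erap1 (H77L against WT, Btz), -0.006300 for H2-D1 (treatment, WT), and 0.18 for Erap1 and -0.0362 for B2m (H77L minus C118F response). With mice low in H2-T9 left aside they were -0.0259 for Erap1 (H77L against WT, Btz), 0.0679 for B2m (treatment, WT), 0.12 for H2-D1 (C118F against H77L, DMSO), and -0.15 for H2-K1 and -0.0779 for B2m (C118F against H77L, Btz). Erap1 in the H77L minus C118F response was 0.0859 with median centring, 0.0102 with quantile normalization and 0.0654 with voom, and H2-D1 by treatment in WT was -0.008854 with quantile normalization.

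Leaving out 1 mouse gave ranges across 0 of -0.0277 to 0.199 for Tap1 (H77L against WT, DMSO), -0.0211 to 0.0953 for Erap1 (H77L against WT, Btz) and -0.0778 to 0.0113 for Tap2 (C118F against WT, Btz). By treatment in WT they were -0.0641 to 0.144 for Tap1, -0.113 to 0.0303 for B2m and -0.0645 to 0.187 for H2-D1. Between the lines they were -0.19 to 0.19 for H2-D1 under DMSO, and -0.289 to 0.0110 for Tap1, -0.0393 to 0.428 for B2m and -0.0919 to 0.219 for H2-K1 under bortezomib. In the H77L minus C118F response they were -0.12 to 0.18 for Erap1, -0.0674 to 0.43 for B2m, -0.0677 to 0.32 for H2-K1 and -0.32 to 0.0772 for H2-D1. Nlrc5 was read with 0 to 409 reads per mouse and did not pass the filter with all mice kept.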
